A study of Mus musculus with 3 samples.

Results

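The genes described are the 46 annotated mouse genes that encode subunits of RNA polymerase II (13 genes, Polr2a to Polr2m) and of the Mediator complex (33 genes). They were chosen by name, as the symbols Polr2a to Polr2m, the symbols made of Med and a number with or without a final l, and Cdk8, Cdk19 and Ccnc, in each case with an annotated protein-coding transcript. No measured value enters this rule, but the genes were chosen with earlier results of these data known. They are 46 of 55536 annotated genes and of 22028 protein-coding genes.

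RNA was measured in the chromatin fraction of bone-marrow-derived macrophages from C57BL/6J mice, after ribosomal RNA was depleted. All 3 libraries come from cells given 100 ng/ml lipid A, the membrane anchor of bacterial lipopolysaccharide that Toll-like receptor 4 recognises, for 20 min. There is 1 group and no untreated group, so no response to lipid A can be read from these values. The libraries are labelled biological replicates 1, 2 and 3 and were started from 1 µg, 250 ng and 500 ng of RNA. The labels give 1 donor entry for the 3 biosamples and neither sex nor age, so the spread between libraries, and any p-value made from it, may be technical.

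RNA polymerase II transcribes all protein-coding genes. Polr2a and Polr2b encode the large subunits that form its active centre, and the smaller subunits hold the pair together, form the stalk near the RNA exit or are shared with polymerases I and III. Mediator bridges transcription factors bound at enhancers and promoters to the polymerase. Its head and middle touch the polymerase, its tail receives most activators, Med14 is the backbone that joins these parts, and a separable kinase module of Cdk8 or Cdk19, cyclin C, Med12 and Med13 binds the rest reversibly. In macrophages, genes induced by inflammatory signals depend on the same machinery. Chromatin RNA is enriched for transcripts still attached to the template, so levels here are those of chromatin-bound RNA, not of mature messenger RNA or of protein.

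The totals were 16317439, 16245280 and 12439931 expected counts in replicates 1, 2 and 3, of which the 46 genes took 29287, 27775 and 23349. TPM is a level per transcript length, relative to all transcripts of a library. Protein-coding genes held 15.8%, 18% and 24.7% of all TPM in replicates 1, 2 and 3, so the same coding gene reads higher in replicate 3 unless it is rescaled. In all, 36 of the 46 genes were highest in replicate 3, as were 7948 of 8942 detected protein-coding genes. When TPM was rescaled over protein-coding genes, 10, 14 and 22 of the 46 were highest in replicates 1, 2 and 3. All 12 macrophage markers were detected at 1 TPM or more in every library, with summed levels of 728.9, 714.9 and 1194 TPM. Markers of T and NK cells (7), B cells (5), neutrophils (7), erythroid cells (5) and fibroblasts (5) were below 1 TPM in at least 1 library each, with summed levels from 0.02 to 1.59 TPM per list. Cd3d and Ly6g were listed at 0 in all 3 libraries. Of 5 dendritic cell markers, Batf3 alone passed, at 1.86 ± 0.29 TPM (SD, n = 3). In the authors' second set of tables, 3 dendritic cell, 2 T and NK cell and 1 fibroblast markers reached 1 TPM in every library. Of the B cell, neutrophil and erythroid markers 0 did so there. In bulk RNA, fewer cells of a type and less RNA per cell cannot be told apart.

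A large part of the TPM of these genes was assigned to transcripts annotated as retaining an intron. In 5 genes a transcript annotated as a retained intron was the most abundant in all 3 libraries, namely Polr2b, the middle subunit gene Med21 and the tail subunit genes Med15, Med24 and Med28. They are 14.7% of the 34 genes with more than 1 transcript and at least 1 TPM in every library. The share was 16.1% over 8486 protein-coding genes chosen in the same way, close to that of the set. In the authors' second set of tables, the estimated-count tables, it was 32.4% of the 34, beside 21% of 8485 protein-coding genes. How the set compares thus depends on the quantification. The top transcript was the same in all 3 libraries of the estimated-count tables for the 4 Mediator genes, and in replicates 1 and 2 but not 3 for Polr2b. The lines below show, for each, a place where that transcript runs across a splice site that a protein-coding transcript of the same gene uses, as an example of how the forms differ. Med24-204 has 3 such borders at 5′ and 3 at 3′ splice sites, of which 1 is shown, and the others have 1 each. Each is 30 bases of the GRCm38 (mm10) reference transcripts, 5′ to 3′ on the strand of the gene, with 12 exon bases and 18 intron bases. Capitals mark the 6 intron bases next to the splice site.
Med15-209, chr16:17680531-17680560, minus strand: caactccacagaGTGAGTactacactcctt
Med21-206, chr6:146642641-146642670, plus strand: gctgtgaactcgGTGAGGgctttcctctgc
Med24-204, chr11:98717892-98717921, minus strand: tagaggaggcctGTATGTcccctgactccc
Polr2b-203, chr5:77313212-77313241, plus strand: gatcgtgatcagGTAACTcgaccgaatggc
Med28-204, chr5:45522418-45522447, plus strand: tatgttcccttcACTCAGgcttgctttgct
In Med15, Med21, Med24 and Polr2b the border is a 5′ splice site, and the intron starts with GT. In Med28 it is a 3′ splice site, the intron bases come first, and the intron ends with AG. The intron that begins or ends there is used by 4 of 8 protein-coding transcripts of Med15, by 2 of 2 of Med21, by 1 of 3 of Med24, by 1 of 1 of Polr2b and by 2 of 3 of Med28. Polr2b-203 is only 261 bases long, so its place as the top transcript can rest on few reads.

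Most of the 46 genes were detected, and as a set they sat above the typical protein-coding gene and below the typical detected one. At 1 TPM or more in every library, 36 of 46 (78.3%) were detected, beside 8942 of 22028 (40.6%) protein-coding genes. The median level of the 46 was 2.51, 4.04 and 5.72 TPM in replicates 1, 2 and 3, a mean of 4.09 ± 1.61 TPM (SD, n = 3). For all protein-coding genes it was 0.41 ± 0.157 TPM, and for the detected ones 9.02 ± 2.60 TPM (SD, n = 3 each). The 46 include 10 genes that missed the limit, which lowers their median beside that of detected genes alone. No gene of the 46 had 0 counts in any library. The 10 that missed the limit split by complex. Among RNA polymerase II genes, 5 (Polr2d, Polr2h, Polr2i, Polr2j, Polr2l) reached it in some libraries, and 5 Mediator genes (Med9, Med12l, Med18, Med30, Med31) reached it in none.

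**Figure D1:**
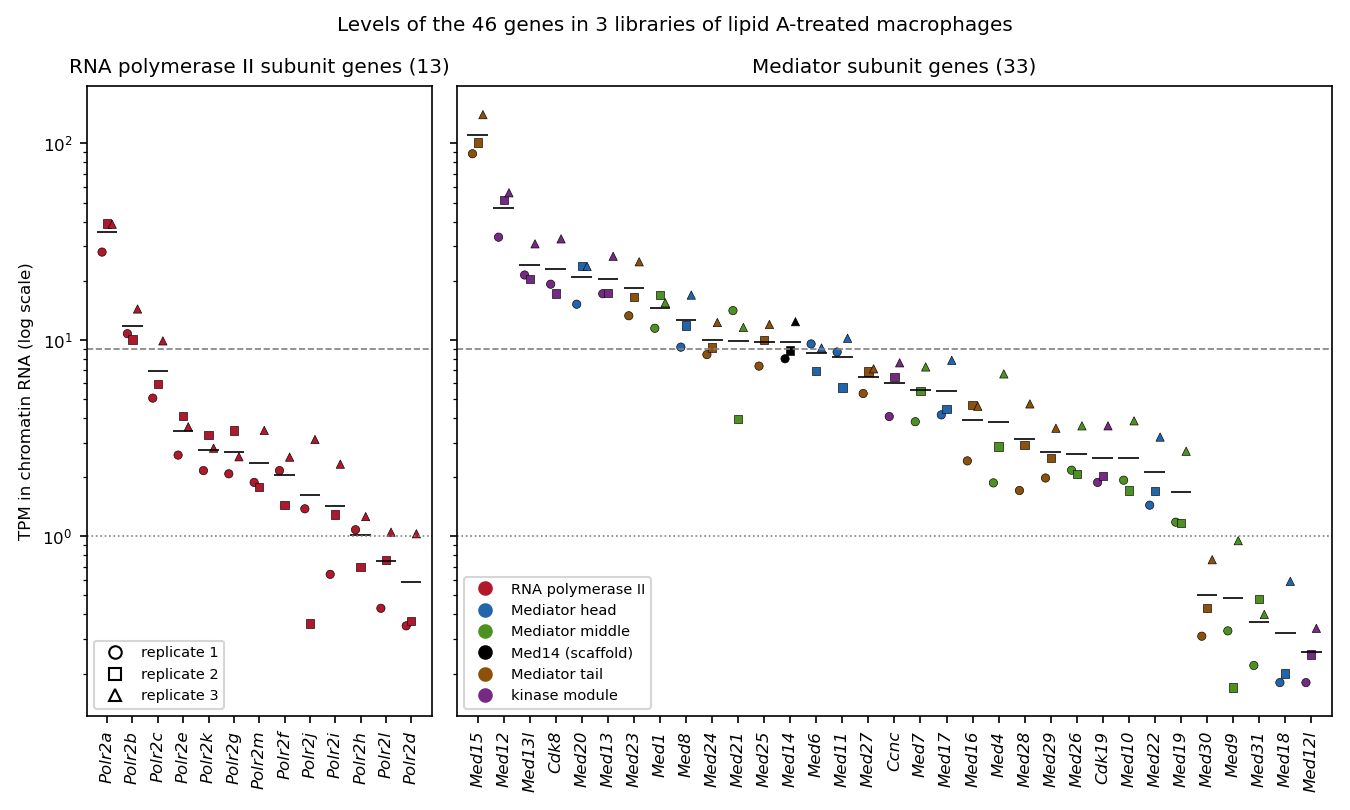
TPM (log scale) of each of the 13 RNA polymerase II genes (left) and 33 Mediator genes (right) in the 3 libraries, ordered by their mean, which the short bars mark; the dotted line is 1 TPM and the dashed line the median of detected protein-coding genes (9.02 TPM). Polr2a and Polr2b stand above the other 11 polymerase genes, Med15 tops the Mediator genes at 110 TPM, and Med21 has replicate 2 far below the other libraries.

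RNA polymerase II genes were lower than Mediator genes in every library. Their median was 2.08, 1.78 and 2.81 TPM in replicates 1, 2 and 3, against 4.15, 5.48 and 7.64 TPM for Mediator genes. The difference of the medians of log2(TPM + 0.1), RNA polymerase II minus Mediator, was -0.96, -1.57 and -1.41, a mean of -1.31 ± 0.31 (SD, n = 3). An exact sign-flip test on 3 libraries cannot give a p below 0.25, so none is given. The catalytic pair was among the highest of all groups, and the other polymerase genes were lower.

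Polr2a encodes the largest subunit, whose C-terminal repeats are phosphorylated as transcription proceeds. It lies at chr11:69733997-69758637 on the minus strand and had 27.97, 39.03 and 38.76 TPM in replicates 1, 2 and 3. In TPM it was lowest in replicate 1 and about level in the other libraries, and it stood at percentile 94.1 of protein-coding genes. Rescaled over protein-coding genes it had 177, 216 and 157 TPM in replicates 1, 2 and 3, lowest in replicate 3. Polr2b, the second-largest subunit, at chr5:77310147-77349324 on the plus strand, had 10.75, 10.05 and 14.36 TPM. Polr2a was therefore above Polr2b in each library, by 2.60-, 3.88- and 2.70-fold, a mean log2 ratio of 1.59 ± 0.32 (SD, n = 3). The size of this ratio is uncertain. Of the Polr2b level, 5.50, 6.00 and 7.04 TPM belonged to Polr2b-203, a transcript of 261 bases whose TPM can rest on few reads. In expected counts, which are not scaled by length, Polr2a had 2821, 3187 and 2174 and Polr2b 382, 288 and 277. The products of both genes enter the enzyme in equal numbers.

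The 11 remaining polymerase genes were all below Polr2b. Polr2c, which starts assembly of the enzyme by pairing with another small subunit, had 5.05, 5.97 and 9.88 TPM. Polr2e had 2.59, 4.11 and 3.61 TPM and Polr2k 2.16, 3.28 and 2.81 TPM; both subunits are shared with polymerases I and III. These make up the top 5 by mean with Polr2a and Polr2b, but Polr2e and Polr2k overlap each other and the stalk subunit gene Polr2g, at 2.08, 3.45 and 2.54 TPM, so the last of these places is not resolved. Polr2d, a stalk subunit, had 0.35, 0.37 and 1.03 TPM. Polr2l, a shared subunit, had 0.43, 0.76 and 1.05 TPM. Polr2h, another shared subunit, had 1.08, 0.70 and 1.26 TPM. These 3 lowest genes overlapped one another and rested on 6 to 22.6 expected counts a library, so their order is not resolved. The group medians were 23.5 ± 3.71 TPM for the catalytic pair, 1.93 ± 1.03 TPM for Polr2c, Polr2i and Polr2j, 1.64 ± 0.371 TPM for the stalk pair of Polr2d and Polr2g, and 2.04 ± 0.554 TPM for the 5 shared subunits (SD, n = 3 each). Polr2m, which encodes the polymerase-associated factor Gdown1, averaged 2.37 ± 0.942 TPM (SD, n = 3).

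Within Mediator, the kinase module was highest and the middle lowest by group median. The 7 kinase module genes had a median of 20.3 ± 5.46 TPM, the scaffold gene Med14 9.73 ± 2.32 TPM, the 7 head genes 7.83 ± 1.84 TPM, the 9 tail genes 6.45 ± 0.979 TPM and the 9 middle genes 2.63 ± 1.08 TPM (SD, n = 3 each). In each library the kinase module was above every other Mediator group and the middle below every one. Head and tail did not keep 1 order, since the tail was above the head in replicate 2 and below it in the others.

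**Figure D2:**
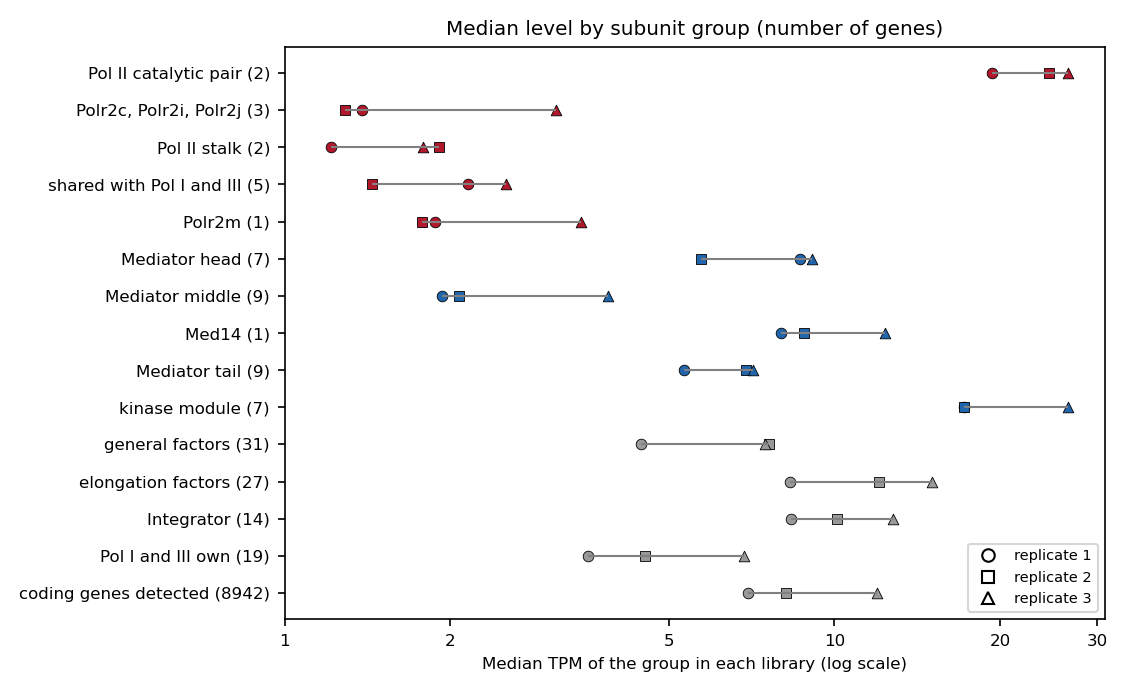
Median TPM (log scale) of each subunit group in the 3 libraries, with the number of genes in parentheses; red marks RNA polymerase II, blue Mediator and grey the comparison lists and all detected protein-coding genes, and the line spans the 3 libraries. The catalytic pair and the kinase module lie to the right of the other groups in each library, and the other polymerase groups lie low, together with the Mediator middle; replicates 1 and 2 of the kinase module coincide at 17.2 TPM.

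Med15, a tail subunit that activators bind directly, was the highest of the 46 genes. It lies at chr16:17651208-17732891 on the minus strand and had 88.56, 101.02 and 140.06 TPM in replicates 1, 2 and 3, a mean of 110 ± 26.9 TPM (SD, n = 3). It stood at percentile 98.8 of protein-coding genes and was above every other gene of the 46 in each library. Rescaled over protein-coding genes, its 3 libraries lay within 1.01-fold of each other. Med20, a head subunit, had 15.18, 23.72 and 23.64 TPM. In TPM it was lowest in replicate 1. Rescaled over protein-coding genes it had 96.1, 131 and 95.7 TPM, with replicates 1 and 3 about level.

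At the low end, Med18, a head subunit, had 0.18, 0.20 and 0.59 TPM, on 5, 6 and 9 expected counts. Med31, a middle subunit, had 0.22, 0.48 and 0.40 TPM, on 4, 6 and 4 expected counts. With Med12l they were the lowest 3 of Mediator, each below 1 TPM in all 3 libraries. The deposited interval for Med31 ran to 0.54, 0.98 and 1.01 TPM in replicates 1, 2 and 3, so at this depth its place below 1 TPM is close to the limit of what can be told.

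The kinase module exists in alternative forms, because Cdk8 and Cdk19, Med12 and Med12l, and Med13 and Med13l are pairs of related genes whose products can replace each other in the module. Med12, which activates the kinase through cyclin C, had 33.31, 51.30 and 56.05 TPM, and was the second-highest of the 46 genes. Med13l had 21.38, 20.35 and 30.81 TPM. Cdk8, the kinase itself, at chr5:146231230-146302874 on the plus strand, had 19.20, 17.18 and 32.66 TPM. Med13, which links the module to the rest of Mediator, had 17.17, 17.31 and 26.63 TPM. Ccnc, the cyclin partner, had 4.07, 6.46 and 7.64 TPM. All 5 were detected in each library, and Ccnc was below the other 4 in each.

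Cdk19 and Med12l were far below their partners, and Med13l was not. Cdk19 had 1.88, 2.02 and 3.65 TPM, and Cdk8 was above it in each library by 10.2-, 8.5- and 8.95-fold, a log2 ratio of 3.20 ± 0.14 (SD, n = 3). Med12l, at chr3:59005825-59318682 on the plus strand, had 0.18, 0.25 and 0.34 TPM, the lowest mean of the 46. Med12 was above Med12l by 185-, 205- and 165-fold, a log2 ratio of 7.53 ± 0.16 (SD, n = 3). Of the Med12l exon bases, 15.3% are shared with Igsf10 on the opposite strand, which had at most 0.05 TPM. Med13 over Med13l gave log2 ratios of -0.32, -0.23 and -0.21, a mean of -0.25 ± 0.06 (SD, n = 3), so this pair was close to even, with Med13l slightly higher in each library of the gene tables. These are ratios within a library and do not depend on how libraries are scaled. They do depend on the quantification: in the estimated-count tables Med12 over Med12l was 6.52 and Cdk8 over Cdk19 3.20. Med13 over Med13l was -0.04 there, with -0.04, -0.15 and 0.08 in replicates 1, 2 and 3, so Med13 was the higher of the pair in replicate 3.

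Neighbouring parts of the transcription machinery gave a frame for these levels. The 31 genes of the general transcription factors, which load the polymerase at promoters, had a median of 6.51 ± 1.79 TPM and 29 were detected. All 27 elongation factor genes, which govern pausing and release, were detected, with a median of 11.8 ± 3.39 TPM. The 14 Integrator genes, whose complex cleaves nascent RNA, had a median of 10.4 ± 2.25 TPM and 13 were detected. The 19 genes of the subunits that belong only to polymerases I and III had a median of 4.98 ± 1.69 TPM and 16 were detected (SD, n = 3 for each median). The highest gene of each list was Gtf2a2, of factor TFIIA, at 23.7 ± 11.9 TPM, Cdk9, the kinase that releases paused polymerase, at 82.9 ± 18.7 TPM, Ints6 at 49.0 ± 19.9 TPM and Polr3gl at 21.5 ± 9.77 TPM (SD, n = 3 each). The lowest were Taf12 at 0.60 ± 0.213 TPM, Supt4a at 2.26 ± 1.29 TPM, Ints5 at 0.773 ± 0.197 TPM and Polr1e at 0.91 ± 0.35 TPM (SD, n = 3 each). Mediator, at 5.76 ± 1.76 TPM, was thus below the elongation and Integrator lists in each library, and RNA polymerase II below all 4 lists in each library.

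Levels of the 46 genes tended to be higher in longer genes. The 20 genes under 10 kb had a median of 2.36 ± 0.709 TPM and 13 were detected. The 13 genes from 10 to 30 kb had 6.70 ± 2.12 TPM and 11 were detected, and the 13 of 30 kb or more had 11.7 ± 2.31 TPM and 12 were detected (SD, n = 3 each). The shares detected were 65%, 84.6% and 92.3% in these length classes. Over all protein-coding genes they were 23%, 47.5% and 52.8%, which also rose with length. Over the 46 genes Spearman's rho between mean TPM and gene length was 0.48, with the largest number of exons 0.63 and with the number of annotated transcripts 0.60. Over all 22028 protein-coding genes the values were 0.30, 0.44 and 0.55, and over the 8942 detected ones 0.22, 0.37 and 0.39. These are descriptions across genes of the same libraries, and genes are not independent replicates. Med12l and Cdk19 stand off the trend: Med12l spans 312858 bases and had the lowest level, and Cdk19 spans 144255 bases at 2.52 TPM.

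**Figure D3:**
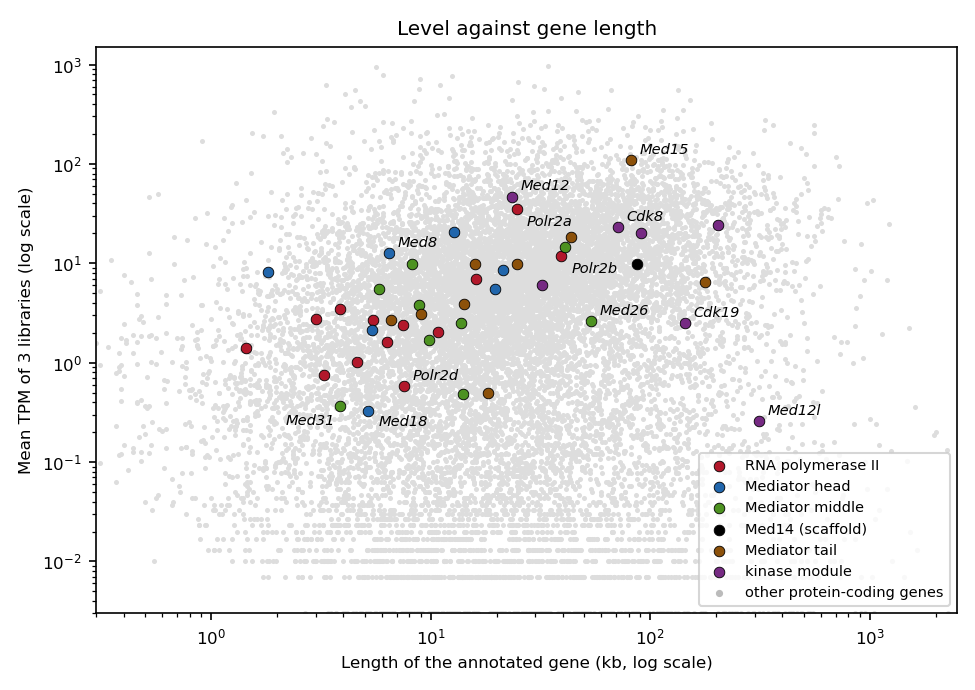
Mean TPM of 3 libraries against the length of the annotated gene (both on log scales), with the 46 genes coloured by complex and group over all other protein-coding genes above 0 TPM (grey). Levels of the 46 tend to be higher in longer genes, and Med12l, at the bottom right, lies far below.

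Summed over the 46 genes, retained introns took nearly as large a share of TPM as protein-coding transcripts did, a balance that depends on Med15. TPM is a level per transcript length, so these are not shares of reads, and they were not computed over all protein-coding genes. Of the summed TPM of the 46 genes, protein-coding transcripts took 44.9% ± 2.13, retained introns 42.1% ± 2.10, processed transcripts 11.6% ± 0.324 and transcripts subject to nonsense-mediated decay 1.46% ± 0.216 (SD, n = 3 each). RNA polymerase II genes had 19.7% ± 1.99 in retained introns and 20.9% ± 2.02 in processed transcripts, against 46.3% ± 1.91 and 9.82% ± 0.104 for Mediator genes (SD, n = 3 each). These shares weigh each gene by its level, and the gaps between the complexes depend on Polr2a, which has no annotated retained-intron transcript. Without Polr2a, left out after its values were seen, RNA polymerase II genes had 38.4% ± 2.09 in retained introns and 2.13% ± 1.85 in processed transcripts (SD, n = 3 each), so the direction of the processed-transcript gap reversed. Without Med15, the highest gene, Mediator genes had 36.2% ± 2.39 in retained introns and 52.0% ± 2.16 in protein-coding transcripts (SD, n = 3 each). All RNA polymerase II genes together had 56.7% ± 1.81 in protein-coding transcripts (SD, n = 3). With both left out, the retained-intron gap, RNA polymerase II minus Mediator, was 2.2 percentage points in place of -26.6. Weighing each gene equally, the median noncoding share of detected genes was 46.5% for RNA polymerase II and 46.5% for Mediator.

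Gene by gene, the share of TPM in transcripts not annotated as protein-coding had a median of 46.5% ± 3.02 over the 34 detected genes with more than 1 transcript, and of 47.9% ± 1.26 over 8486 protein-coding genes chosen in the same way (SD, n = 3 each). The gap of these medians is smaller than the spread between libraries. In the estimated-count tables the medians were 58.6% for the 34 and 55.4% for the protein-coding genes, so the direction of the gap turned. In the gene tables the share exceeded 50% in every library for 12 of the 34 (35.3%), beside 3228 of the 8486 (38%). In the estimated-count tables it did so for 18 of the 34, these 12 among them, beside 4241 of 8485 protein-coding genes. It was below 50% in every library for 17. The highest shares were those of Med20, at 86.7% ± 0.581, Polr2e, at 86.0% ± 4.21, and Med15, at 81.7% ± 2.17 (SD, n = 3 each). Among genes above 0, the lowest were Cdk19, at 7.85% ± 5.71, Med13, at 12.4% ± 8.59, and the stalk subunit gene Polr2g, at 15.0% ± 14.5 (SD, n = 3 each). These ranks did not all hold in the estimated-count tables, where the means were 28.4%, 40.2% and 38.6% for Cdk19, Med13 and Polr2g. There Med19 at 2.24%, Med17 at 22.3% and Med14 at 24.2% were lower than Cdk19, and further genes were lower than Med13 and Polr2g. There the highest were Polr2f at 94.0%, Med20 at 92.1% and Med28 at 88.1%. Cdk8 had 81.1% ± 3.95 in noncoding forms (SD, n = 3), and every library of Cdk8 was above every library of Cdk19. In the estimated-count tables the shares were 67.0% for Cdk8 and 28.4% for Cdk19, a smaller gap in the same direction. Of the 46 genes, 10 have no annotated noncoding transcript and cannot show one.

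**Figure D4:**
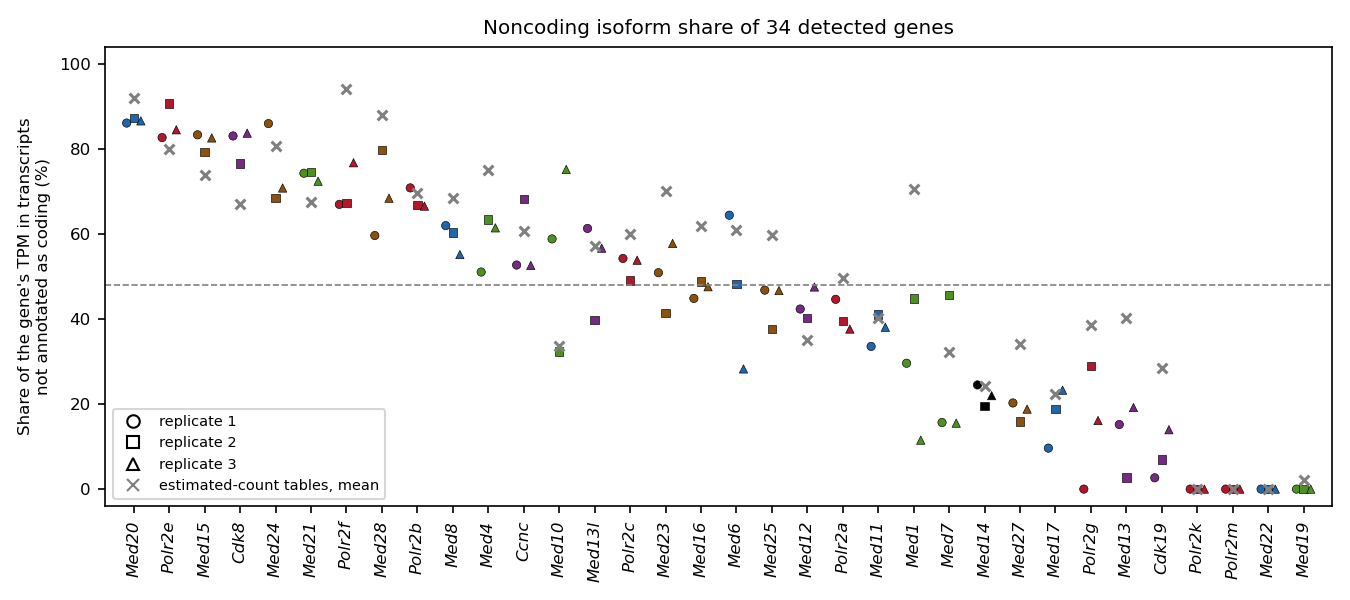
Share of the TPM of each gene in transcripts not annotated as protein-coding (%), for 34 detected genes in the 3 libraries, coloured by complex and group as in the plot of levels; crosses are the means of the estimated-count tables and the dashed line the median of detected protein-coding genes (47.9%). Med20, Polr2e, Med15 and Cdk8 lie near the top and Cdk19 and Med13 near the bottom, and for Med1, Polr2f and Med13 the crosses lie well above the library values.

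For 24 of the 34 genes the same transcript was the most abundant in all 3 libraries, and for 7 of these 24 it was not a protein-coding one. Those are 70.6% and 20.6% of the 34, beside 62.2% and 20.7% of the 8486 protein-coding genes, and the 5 with a retained intron on top are 14.7%, beside 16.1%. In the estimated-count tables the same noncoding transcript was on top in all 3 libraries for 44.1% of the 34, beside 33.1% of 8485 protein-coding genes. For a retained intron it was 32.4% there, beside 21%. Besides the 5 retained-intron transcripts whose splice-site borders are printed above, the 7 include Cdk8-209 and Ccnc-206, both processed transcripts. Med15-209 held 24.2%, 27.8% and 26.6% of the TPM of Med15 in replicates 1, 2 and 3, ahead of the protein-coding Med15-201, at 10.3%, 13.9% and 11.2%. Polr2b-203, a transcript of 261 bases that runs past the 5′ splice site, held 51.2%, 59.7% and 49.0% of Polr2b, against 29.1%, 33.1% and 33.4% for the full protein-coding Polr2b-201. These are shares of TPM, and a transcript this short needs fewer reads for the same TPM than a longer one. For fragment size, 191, 248 and 248 bases come off transcript lengths in replicates 1, 2 and 3. This leaves few of the 261 bases of Polr2b-203, most clearly in replicates 2 and 3. Its place on top can therefore rest on few of the 382, 288 and 277 expected counts of Polr2b. The deposited interval for Polr2b in replicate 2 ran from 4.65 to 17.0 TPM. Med24-204 held 54.5%, 53.2% and 49.2% of Med24 and reads through 3 whole introns. Med28-204 held 59.7%, 72.9% and 68.4% of Med28, and Med21-206 47.5%, 56.9% and 47.2% of Med21. In each of these genes the retained-intron transcript was ahead of every coding one in all 3 libraries. Cdk8-209 held 31.2%, 31.2% and 38.5% of Cdk8, whereas Cdk19-201, which is protein-coding, held 97.3%, 93.1% and 81.1% of Cdk19. In the estimated-count tables the mean shares were 26.8% for Cdk8-209 and 54.5% for Cdk19-201. How reads that fit several transcripts were shared out is set by the quantification, and 13 of the 34 genes had 1 and the same top transcript in all libraries of both sets of tables.

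Some levels rest on sequence shared with other genes. Of the 46 genes, 24 share exon bases with another gene, 16 share 200 bases or more (15 with a gene on the opposite strand), and 21 have a stretch of 200 bases or more that is at least 95% identical to a transcript of another gene. The sources used here give no use of strand, so overlapping genes on opposite strands cannot be told apart. Med10, a middle subunit, shares 92.8% of its exon bases with Gm26819 on the opposite strand and had 1.93, 1.71 and 3.87 TPM. Gm26819 had 1.91, 1.76 and 2.65 TPM, on 261.7, 182.4 and 179.9 expected counts beside 58.3, 61.6 and 72.1 for Med10. The level of Med10 is therefore uncertain. Med20-203, one of the retained-intron transcripts behind the high share of Med20, contains the pseudogene Kpna2-ps over 1569 bases. It had 4.43, 5.35 and 9.03 TPM, while Kpna2-ps itself had 0.73, 0.18 and 0 TPM. All 4 Med20 transcripts also share sequence with the protein-coding gene Gm20517 on the same strand. The longest such stretch is 506 bases, 100% identical. Gm20517 had 5.41, 6.20 and 9.52 TPM, so the level and shares of Med20 are uncertain. Polr2l is 99.7% identical to a transcript of Usp50 over 382 bases. Usp50 had 3.92, 5.25 and 6.45 TPM, above the 0.43, 0.76 and 1.05 TPM of Polr2l, so the level of Polr2l is uncertain. Cdk8 is 97.2% identical to the pseudogene Gm7107 over 1250 bases, and Gm7107 had at most 0.13 TPM.

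The second set of tables read most of the 46 genes higher. Their level there was higher for 43 of 46 genes, with a median ratio of 1.51 beside 1.54 for detected protein-coding genes. The 5 genes that differed most were Med18 (5.91-fold), the shared polymerase subunit gene Polr2f (3.95-fold), Polr2m (2.77-fold) and the tail genes Med27 (3.25-fold) and Med16 (2.66-fold). Med18, for example, had 1.37, 1.47 and 2.90 TPM there, and would pass the limit of 1 TPM. Med10 was lowest, at 0.768-fold.

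The spread between libraries was like that of other genes for most of those with an estimate, and Med21 stood highest. The biological coefficient of variation, edgeR's estimate of the spread between libraries beyond counting error, could be had for 38 of the 46 genes. Its median was 19.5% over the 38 and 19.5% over 10870 protein-coding genes tested. The lowest values were those of Cdk19 at 16.5%, the head subunit gene Med17 at 16.5% and Polr2b at 16.7%. The highest were those of Med21 at 41.2%, the middle subunit gene Med4 at 27.4% and the head subunit gene Med11 at 25.4%, and Med21 stood at percentile 99.6 of protein-coding genes. The 8 genes with too few counts for an estimate include Polr2j and Med9, whose highest library was 6.31-fold and 4.08-fold above their lowest after rescaling over protein-coding genes.

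Med21, a small middle subunit, lies at chr6:146642547-146650732 on the plus strand. It had 14.09, 3.96 and 11.57 TPM in replicates 1, 2 and 3, on 422, 83.7 and 161 expected counts. Replicate 2, started from 250 ng, was lowest in TPM, and replicate 1, started from 1 µg, highest. Rescaled over protein-coding genes, its highest library was 4.06-fold above its lowest. Each of its 3 transcripts above 0 was lowest in replicate 2: Med21-206 had 6.69, 2.26 and 5.46 TPM, Med21-203, which is protein-coding, had 3.62, 1.01 and 3.19 TPM, and Med21-202 had 3.78, 0.70 and 2.92 TPM. Med21-202 contains the pseudogene Gm6654 and is 97.5% identical to Rps26 over 435 bases. Gm6654 itself had 3.21, 0.96 and 0 TPM, highest in replicate 1 as Med21 was. Rps26 had 1.76, 2.50 and 5.45 TPM, lowest in replicate 1. Rps26-ps1, a pseudogene 98.4% identical over 446 bases, had 1.07, 2.30 and 1.09 TPM, highest in replicate 2. How reads were shared among these genes was not tested.

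Apart from the replicate number, the labels of the libraries differ in starting RNA. A slope of level on log2 starting RNA was tested across all genes with edgeR's quasi-likelihood test, with 1 library an amount and 1 residual degree of freedom. It called 88 of 15065 genes (0.584%) at an adjusted p below 0.05, of which 83 were higher with more RNA. Of 41 genes of the set that could be tested 1 was called, which is Med21, with a slope of 1.04 log2 units per doubling of starting RNA and an adjusted p of 0.0131 by edgeR. Over the other tools and settings with a test its adjusted p ranged from 6.34e-05 to 0.0117. Polr2j, whose product pairs with that of Polr2c, with 1.38, 0.36 and 3.11 TPM on 24, 5 and 16.7 expected counts, had a slope of 0.88 and an adjusted p of 0.629 by edgeR, and did not pass. The median slope was -0.03 over the 41, or 0.06 without replicate 2, and 0.00 over all genes. Among the 27 elongation, 31 general, 14 Integrator and 19 polymerase I and III genes, all tested, edgeR called 0, as did DESeq2, and 7 of the 91 had an unadjusted p below 0.05 in edgeR and 1 in DESeq2.

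**Figure D5:**
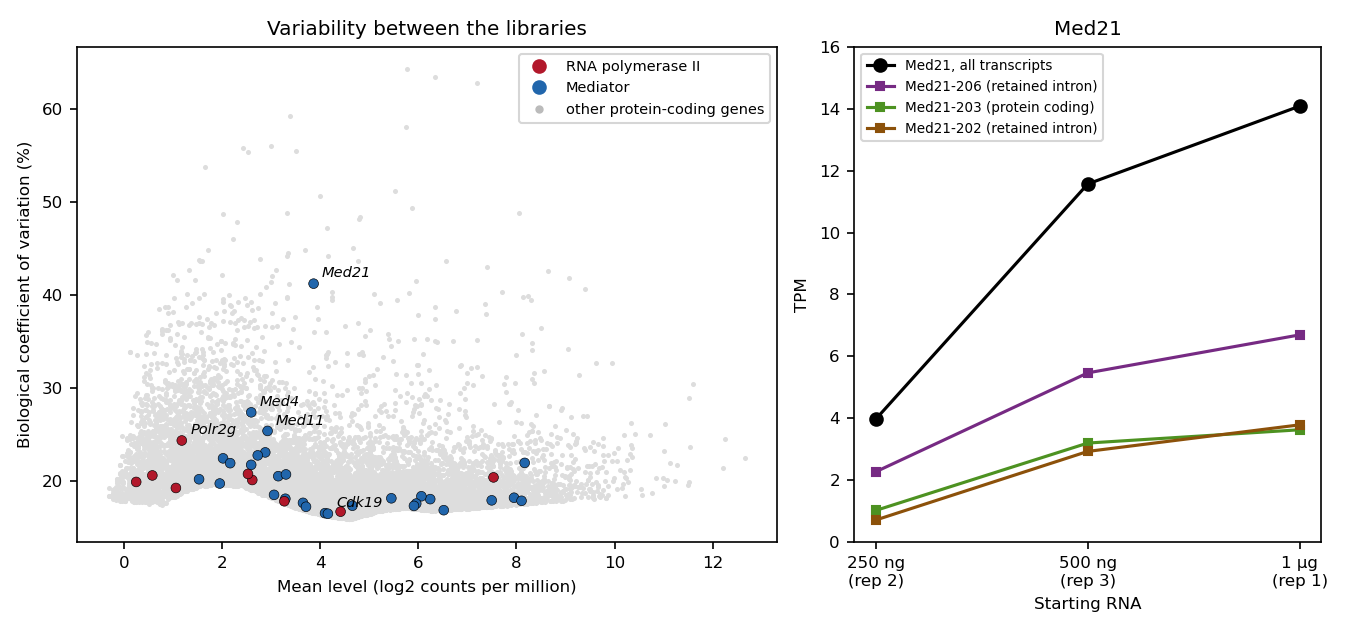
Left, biological coefficient of variation (%) against mean level (log2 CPM, counts scaled to library size) for 38 of the 46 genes over other protein-coding genes (grey); right, TPM of Med21 and its 3 measured transcripts by starting RNA, 1 library per point. Med21 stands at 41.2%, above all other genes of the set, and its 3 transcripts are lowest in the 250 ng library.

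With 1 library at each amount, starting RNA cannot be told apart from the culture a library came from or from its other technical properties. Replicate 1, started from 1 µg, had 1.08% of expected counts in entries without a gene, beside 0.299% and 0.332% in replicates 2 and 3. The call for Med21 cannot be tested with any library left out.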

How the data were processed

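Chromatin-fraction RNA, depleted of ribosomal RNA, was sequenced in 1 group of 3 libraries. The authors deposited, per the file headers, expected counts and TPM per gene and transcript, and, in a second set of transcript tables, estimated counts and TPM. A signal column pair, deposited by the authors, bounds each TPM. The sources used here give neither the level of that interval nor the tools, their versions or the use of strand. Since every entry of a table enters the TPM scale, abundant small RNAs lower the TPM of other genes. The 26345 entries without a gene (spike-ins, phiX and numeric identifiers) made up 1.08% of expected counts in replicate 1, 0.299% in replicate 2 and 0.332% in replicate 3, and were left out of library sizes and tests. Symbols, transcript types and 1-based coordinates are those of GENCODE M21 (GRCm38, also called mm10).

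A gene was called detected at 1 TPM or more in every library. Rounded expected counts were fitted in R 4.3.3 by edgeR 4.0.16 after filterByExpr and TMM scaling, with Benjamini-Hochberg adjustment over all genes tested at 0.05; DESeq2 1.42.0 was an alternative. Shared stretches were sought with BLAST+ 2.17.0 at 95% identity over 200 bases. Differences of levels used log2(TPM + 0.1). The genes, groups and lists were chosen with earlier results of these data known. Named genes were Polr2a, Polr2b, the kinase module, the highest 5 and lowest 3 by mean TPM of each complex, the 3 highest and lowest in variability and in noncoding share, the 5 that differed most between both sets of tables, any past the slope test, and the highest and lowest of each list. Others are named where a count or an overlap concerns them and were picked after their values were seen.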

Additional observations from a re-analysis of the deposited data

How the results depend on the processing

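The level difference, the mean paralog ratios and the Med21 slope kept their sign under the alternatives run, and the median slope of the 41 genes did not (0.06 without replicate 2). With a limit of 5 TPM 18 of the 46 genes were detected. The median level was 7.92 TPM in the estimated-count tables and 20.45 TPM rescaled over protein-coding genes. RNA polymerase II minus Mediator was -0.98 with posterior mean TPM and -0.93 with means in place of medians. Med12 over Med12l was 6.52 in the estimated-count tables and 7.13 with posterior mean TPM, and Med13 over Med13l was -0.04 in the estimated-count tables. The noncoding share was 58.6% in the estimated-count tables, beside 55.4% for protein-coding genes, and 42.0% with only retained introns and processed transcripts counted. The median coefficient of variation, as a fraction, was 0.218 with no filter on low counts. Genes called for a slope numbered 158 with estimated counts and 284 with no filter. Leaving out each library in turn gave 36 to 38 genes detected, a median level of 3.27 to 4.88 TPM, a difference of -1.49 to -1.19, ratios of 3.12 to 3.26 for Cdk8 over Cdk19, 7.45 to 7.61 for Med12 over Med12l and -0.27 to -0.22 for Med13 over Med13l, a noncoding share of 45.3% to 48.2%, a variation of 0.184 to 0.219 and a Med21 slope, with no test, of 0.89 to 1.16. In settings added after the data were seen, RNA polymerase II minus Mediator was, for retained introns, -16.5 percentage points without Med15, -7.9 without Polr2a and 2.2 without both, and for processed transcripts -7.69 without Polr2a and -7.97 without both. No paired analysis was possible because the series has 1 group.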
